A study of Rattus norvegicus with 150 samples.

Results

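The comparison set muscle carrying depleted uranium (DU) against muscle carrying tantalum (Ta), the metal the study used as its surgical sham, at 1 and 6 months after the cylinders were put in. It took every library labelled DU or Ta at those times, which was 31 of the 150 RNA-seq libraries of the series, 16 with DU and 15 with Ta. The groups were DU at 1 month (n = 8), Ta at 1 month (n = 7), DU at 6 months (n = 8) and Ta at 6 months (n = 8). All came from the gastrocnemius, a calf muscle, of male Sprague-Dawley rats that were about 30 days old at purchase and were kept for at least 2 weeks before surgery. Each rat, DU and Ta alike, carried 4 cylinders of its metal (2 per limb) with a diameter of 1 mm and a length of 2 mm. Ages at sampling were not given beyond the time since surgery, so a difference between the times is also one of age, and time and age cannot be told apart. The question was whether muscle around uranium differed from muscle around the sham metal once the time was held fixed.

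Depleted uranium is the dense, weakly radioactive metal left after enrichment, and fragments of it can stay in the muscle of wounded soldiers for years. In tissue its surface corrodes and releases uranium, which is known above all for its effects on the kidney. Tantalum is used in surgical implants because it corrodes very little, and a muscle that holds either metal may respond to surgery and to a foreign body. A bulk muscle library mixes fibres with connective tissue, vessel, nerve and immune cells, so fewer cells of a type and less RNA per cell cannot be told apart.

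Genes are given by Ensembl identifier. Of 32545 identifiers in the table, 0 could be paired with a name, so no role is given for any gene, no pathway or cell type list was counted, and the labelled tissue was not checked against its markers. At most 2 identifiers that were higher and 2 that were lower are given for a comparison.

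Total counts per library ran from 13278341 to 21197192 with a median of 16415343, and 22143 genes had a count in at least 1 of the 31 libraries. 3 libraries, all of 6 months, stood apart, as the plot of library measures shows. In DU replicate 8 the 10 most abundant genes took 31.3% of the counts, and its TMM factor, which rescales a library total for such genes, was 0.815. In Ta replicates 4 and 7 those shares were 42.9% and 38.2%, and the factors 0.572 and 0.674. In all other libraries the factor lay between 0.900 and 1.17. Gene counts with both times together, at 6 months and between the times are therefore also given without these 3 libraries. Other results that use 6 months, the interaction among them, are not given without these 3.

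**Figure D1:**
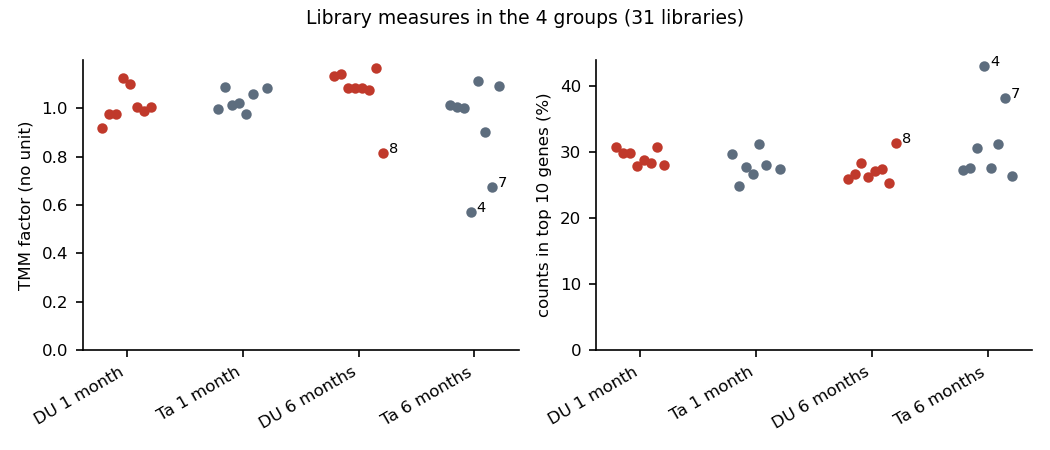
TMM factor (left, no unit) and the percentage of counts in the 10 most abundant genes (right) of each of the 31 libraries, 1 point per library, in the 4 groups. The numbered points are DU 6 months replicate 8 (0.815 and 31.3%) and Ta 6 months replicates 4 (0.572 and 42.9%) and 7 (0.674 and 38.2%).

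With both times together and time as a block, no gene passed the test between DU and Ta. Of 12992 genes tested, 0 (0%) had an adjusted p under 0.05 with edgeR's quasi-likelihood test and Benjamini-Hochberg adjustment, and the lowest adjusted p was 0.146. An unadjusted p under 0.05 was found for 1421 genes (10.9%), of which 507 (3.9%) were higher and 914 (7.04%) lower with DU. The DESeq2 Wald test called 15 genes, 1 higher and 14 lower, and limma with sample quality weights called 0. That excess of lower over higher genes turned round with library totals in place of TMM factors, where 848 were higher and 387 lower, and it shrank to 468 higher and 569 lower without the 3 libraries that stood apart.

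With both times together, the data bounded most differences closely as an average over the times. The 95% interval of the log2 fold change (DU over Ta) lay within a 2-fold difference either way for 12020 genes, 92.5% of those tested, and within a 1.5-fold difference for 70.7%. The median log2 fold change was -0.0015, with quartiles of -0.13 and 0.12. Estimates beyond 2-fold were found for 52 genes higher and 35 lower with DU, none of which passed the test. Within a single time the bound was looser. There the interval lay within 2-fold for 82.0% of genes at 1 month and 80.0% at 6 months. Within 1.5-fold the shares were 50.7% at 1 month and 44.6% at 6 months.

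With both times together, the bound was tightest for genes of middling abundance and loosest for scarce ones. Among the 1295 genes with a mean under 1 CPM (read counts scaled to equal library size), 69.7% had an interval within 2-fold, against 91.7% of the 5039 genes at 1 to 10 CPM and 98.0% of the 5613 genes at 10 to 100 CPM. It was 95.9% for the 953 genes at 100 to 1000 CPM and 91.3% for the 92 genes at 1000 CPM or more. In those 92 most abundant genes the median log2 fold change was -0.17 at 6 months and 0.03 at 1 month. The value at 6 months includes the libraries that stood apart.

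Since no gene passed, the 16 genes of lowest p among those with a mean of at least 1 CPM in either metal and at least 75% of DU libraries beyond the Ta median of their time were taken as values that did not pass. Only 1 of the 16 was higher with DU, in a fit whose excess of lower genes depended on the scaling and on the libraries that stood apart. That gene and the 2 lower genes of lowest p are described, and the plot of these genes shows every library. They were chosen on these same libraries, which enlarges their fold changes and the number of DU libraries beyond the Ta median. Both are therefore a description.

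ENSRNOG00000049575 was the gene higher with DU. At 1 month it ran from 0.587 to 5.28 CPM with DU (median 1.83) and from 0.585 to 1.48 CPM with Ta (median 1.02). At 6 months it ran from 0.332 to 4.46 CPM with DU (median 2.51) and from 0.190 to 1.38 CPM with Ta (median 0.965). The groups overlapped at both times, with 5 of 8 DU libraries above every Ta library at 1 month and 7 of 8 at 6 months. The log2 fold change was 1.39 ± 0.30 (SE), with an edgeR adjusted p of 0.146. Its size was 1.40 at 1 month and 1.39 at 6 months (edgeR adjusted p = 0.424 and 0.141). No library of the 4 groups had more than 96 reads on this gene.

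ENSRNOG00000000723 was lower with DU. At 1 month it ran from 0.455 to 1.26 CPM with DU (median 0.604) and from 0.561 to 1.98 CPM with Ta (median 1.76). At 6 months it ran from 0.466 to 1.82 CPM with DU (median 1.35) and from 1.08 to 5.05 CPM with Ta (median 2.94). All 8 DU libraries lay below the Ta median at each time, and the ranges overlapped. The log2 fold change was -1.11 ± 0.23 (SE), with an edgeR adjusted p of 0.146.

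ENSRNOG00000000459 was also lower with DU, and its DU libraries at 1 month lay close together. At 1 month it ran from 2.05 to 2.43 CPM with DU (median 2.25) and from 2.58 to 5.82 CPM with Ta (median 3.44), so that the groups did not overlap. At 6 months it ran from 1.45 to 3.12 CPM with DU (median 2.39) and from 2.21 to 5.48 CPM with Ta (median 3.31), and 2 of 8 DU libraries were below every Ta library. The log2 fold change was -0.64 ± 0.13 (SE), with an edgeR adjusted p of 0.146.

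**Figure D2:**
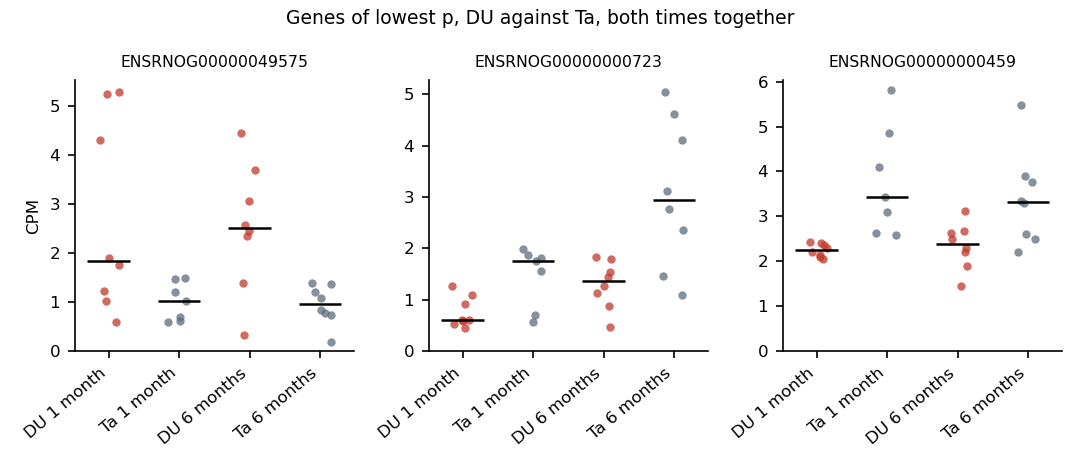
CPM (y axis, from 0) of the 3 genes in each library of the 4 groups, 1 point per library, with a black line at the group median. The DU and Ta points overlap in every panel and time except ENSRNOG00000000459 at 1 month, where the highest DU library is at 2.43 CPM and the lowest Ta library at 2.58 CPM.

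In libraries of 3 and 12 months, which the choice of these genes did not use, none of the 3 passed the test between DU and Ta. The log2 fold change there was 0.03 ± 0.38 for ENSRNOG00000049575, -0.05 ± 0.39 for ENSRNOG00000000723 and 0.41 ± 0.34 for ENSRNOG00000000459 (SE; edgeR adjusted p = 0.979, 0.960 and 0.527 in that order). For ENSRNOG00000000459 the sign of this pooled value was the opposite of that at 1 and 6 months. At 3 months 7 of 8 DU libraries lay below the Ta median, and at 12 months 6 of 8 lay above it. ENSRNOG00000000723 had 7 of 8 below at 3 months and 4 of 8 below at 12 months. ENSRNOG00000049575 had 2 of 8 above at 3 months and 4 of 8 above at 12 months. DU 3 months replicate 2 had 35.9 CPM of ENSRNOG00000000459 against a DU median of 3.40 CPM. Its median correlation with its group was 0.566, and the fold changes here include it. Over all genes, 12 of 12854 (0.0934%) were called between DU and Ta at 3 and 12 months, all higher with DU. That count depended on the setting, with 48 calls without that DU library, 288 with DESeq2, 311 without a filter on low counts, 69 with limma and sample quality weights, and 0 with a replicate block. Of 1395 genes with an unadjusted p under 0.05 at 1 and 6 months that were also tested at 3 and 12 months, 705 (50.5%) had the same sign there, against 45.8% of all genes in both fits.

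Within each time, too, no gene passed. At 1 month 0 of 12992 genes were called (lowest edgeR adjusted p = 0.131), and 1046 (8.05%) had an unadjusted p under 0.05, 572 of them higher (4.4%) and 474 lower (3.65%) with DU. At 6 months 0 were called (lowest edgeR adjusted p = 0.0995), and 2032 (15.6%) had an unadjusted p under 0.05, 507 of them higher (3.9%) and 1525 lower (11.7%) with DU. DESeq2 called 15 genes at 1 month and 393 at 6 months, and 374 of those 393 were lower with DU. Limma with sample quality weights called 1 gene at 1 month and 4 at 6 months. At 1 month edgeR called 1 gene when Ta replicate 1, 3, 5 or 6 was left out, and with library totals the unadjusted genes were 366 higher and 487 lower.

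The result at 6 months rested on single libraries and on the scaling. Without DU replicate 8 there were 609 calls, 563 of them lower with DU, and without Ta replicate 5 there were 385, 357 of them lower. Without Ta replicate 1 there were 4 calls, and without DU replicate 3 there was 1. Without DU replicate 8 and Ta replicates 4 and 7 together there were 0 calls, and the unadjusted genes were 438 higher and 535 lower. With library totals in place of TMM factors the unadjusted genes were 1670 higher and 387 lower, and the median log2 fold change of all genes was 0.22 in place of 0.01.

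Few genes separated the metals library by library. The CPM ranges of DU and Ta did not overlap for 12 genes at 1 month (0.0924%), 5 above and 7 below, and for 4 genes at 6 months (0.0308%), 2 above and 2 below. For 0 genes did they fail to overlap in the same direction at both times.

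The estimated differences between DU and Ta at 6 months and at 1 month showed no common direction. Across the 12992 genes, which are not independent of each other, the log2 fold changes at the 2 times had a Pearson correlation of -0.0018 and a Spearman correlation of -0.038. The sign was the same for 6242 genes (48.0%). An unadjusted p under 0.05 at both times was found for 106 genes, of which 42 had the same sign. The fold changes at the 2 times share no library, though both came from 1 fit. At 1 month their quartiles were -0.15 and 0.15 and the median SE 0.20. At 6 months the quartiles were -0.21 and 0.20 and the median SE 0.19. Errors about as large as the spread weaken any correlation, so these values cannot show whether the 2 times differ.

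**Figure D3:**
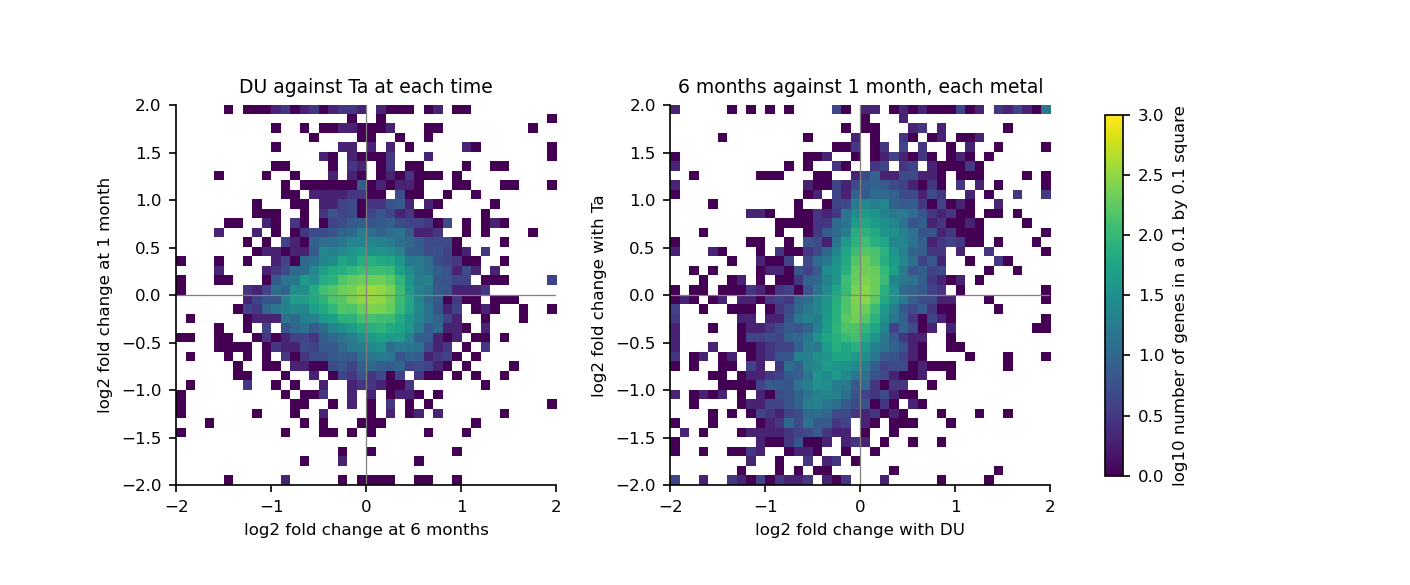
Log2 fold changes of the 12992 genes, as numbers of genes (log10 colour scale) in squares of 0.1 by 0.1, with values beyond 2 either way drawn in the outermost squares. Left: DU against Ta at 6 months (x axis) and at 1 month (y axis), with a Pearson correlation of -0.0018. Right: 6 months against 1 month with DU (x axis) and with Ta (y axis), with a Pearson correlation of 0.47.

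Whether the DU over Ta difference itself differed between the times was tested as an interaction, the DU over Ta difference at 6 months minus that at 1 month. Of 12992 genes 0 (0%) passed, with a lowest edgeR adjusted p of 0.292, while 1557 (12%) had an unadjusted p under 0.05, 575 with a positive difference (4.43%) and 982 with a negative one (7.56%). DESeq2 called 13 genes and limma with sample quality weights 0, and edgeR called 1 when Ta 1 month replicate 3, 4, 5, 6 or 8 was left out. With library totals the unadjusted genes were 1291 positive and 189 negative, around a median over all genes of 0.23. The 4 genes of lowest p that averaged 1 CPM or more in any group are described. Choosing on the interaction favours genes whose changes with DU and with Ta lie apart, so their values are a description, and between the times 0.7% of all genes were called with DU and 20.2% with Ta. The interval lay within 2-fold for 58.9% of genes here, and the interaction was thus measured less closely than the difference between the metals.

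ENSRNOG00000003777 had the lowest p. Its level at 6 months ran from 6.11 to 20.4 CPM with DU (median 9.59) and from 3.38 to 8.63 CPM with Ta (median 6.88). Its level at 1 month ran from 3.27 to 12.9 CPM with DU (median 8.23) and from 8.91 to 23.6 CPM with Ta (median 18.8). DU libraries tended to be the higher ones at 6 months and the lower ones at 1 month, with overlap at both times. The interaction was 1.81 ± 0.38 (log2, SE; edgeR adjusted p = 0.292). With Ta the gene fell by 1.42 on the log2 scale at 6 months relative to 1 month (edgeR adjusted p = 0.00134). With DU the same difference was 0.39 ± 0.26 (edgeR adjusted p = 0.684). All 8 Ta libraries of 6 months lay below every Ta library of 1 month. The Ta times also separated fully for ENSRNOG00000059386 (below) and ENSRNOG00000019295 (above), and in 7 of 8 libraries for ENSRNOG00000025792 (above). How many of all genes separated so was not counted.

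ENSRNOG00000059386 had the narrowest spread of the 4. Its level at 6 months ran from 7.72 to 12.1 CPM with DU (median 9.39) and from 7.13 to 9.69 CPM with Ta (median 8.54), with overlap. Its level at 1 month ran from 8.04 to 10.8 CPM with DU (median 9.90) and from 11.5 to 16.3 CPM with Ta (median 14.3), with no overlap. The interaction was 0.68 ± 0.15 (log2, SE; edgeR adjusted p = 0.292). With Ta the gene fell by 0.71 on the log2 scale at 6 months relative to 1 month (edgeR adjusted p = 0.000328), and with DU the difference was -0.03 ± 0.11 (edgeR adjusted p = 0.987).

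ENSRNOG00000019295 had an interaction of the opposite sign. Its level at 6 months ran from 29.1 to 44.8 CPM with DU (median 35.5) and from 31.2 to 76.1 CPM with Ta (median 51.1). Its level at 1 month ran from 26.3 to 42.4 CPM with DU (median 33.5) and from 12.0 to 28.4 CPM with Ta (median 25.2). All 8 DU libraries were below the Ta median at 6 months and above it at 1 month. The interaction was -1.08 ± 0.23 (log2, SE; edgeR adjusted p = 0.292). With Ta the gene rose by 1.17 ± 0.17 at 6 months relative to 1 month (log2, SE; edgeR adjusted p = 0.000182), and with DU the difference was 0.09 ± 0.16 (edgeR adjusted p = 0.946).

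ENSRNOG00000025792 had the same sign. Its level at 6 months ran from 19.7 to 33.4 CPM with DU (median 24.6) and from 22.2 to 48.3 CPM with Ta (median 33.4). Its level at 1 month ran from 21.0 to 34.8 CPM with DU (median 26.3) and from 12.7 to 23.8 CPM with Ta (median 18.0). The interaction was -0.90 ± 0.21 (log2, SE; edgeR adjusted p = 0.292). With Ta the gene rose by 0.81 ± 0.15 (log2, SE; edgeR adjusted p = 0.00116), and with DU the difference was -0.10 ± 0.14 (edgeR adjusted p = 0.910).

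**Figure D4:**
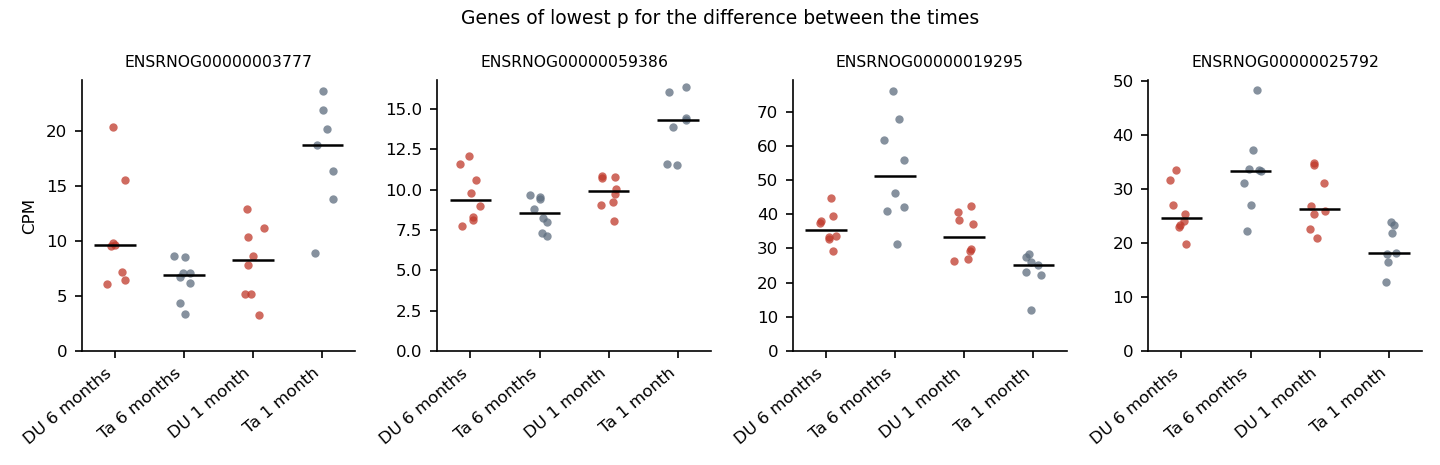
CPM (y axis, from 0) of the 4 genes in each library of the 4 groups, 1 point per library, with a black line at the group median. For ENSRNOG00000003777 the DU medians are 9.59 CPM at 6 months and 8.23 CPM at 1 month, while the Ta medians are 6.88 CPM at 6 months and 18.8 CPM at 1 month.

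The medians with the other metals are given beside these, with no test, for genes that were chosen for a difference between DU and Ta. ENSRNOG00000003777 had a median at 6 months of 9.59 CPM with DU, 8.04 with nickel (Ni), 5.67 with cobalt (Co), 7.79 with the metal labelled P and 6.88 with Ta. Its medians at 1 month were 8.23 CPM with DU, 10.1 with Ni, 8.59 with Co, 7.55 with P and 18.8 with Ta. Ta was thus the highest of the 5 metals at 1 month, while Co was the lowest at 6 months.

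ENSRNOG00000059386 had 9.39 CPM with DU at 6 months, 9.90 with Ni, 9.25 with Co, 9.54 with P and 8.54 with Ta. At 1 month it had 9.90 CPM with DU, 11.3 with Ni, 12.7 with Co, 11.5 with P and 14.3 with Ta. Ta was the lowest at 6 months and the highest at 1 month.

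ENSRNOG00000019295 had 35.5 CPM with DU at 6 months, 44.2 with Ni, 47.8 with Co, 37.9 with P and 51.1 with Ta. At 1 month it had 33.5 CPM with DU, 43.3 with Ni, 36.6 with Co, 29.0 with P and 25.2 with Ta. Here Ta was the highest at 6 months, where DU was the lowest, and the lowest at 1 month.

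ENSRNOG00000025792 had 24.6 CPM with DU at 6 months, 28.9 with Ni, 25.4 with Co, 30.4 with P and 33.4 with Ta. At 1 month it had 26.3 CPM with DU, 25.5 with Ni, 17.2 with Co, 26.2 with P and 18.0 with Ta. Ta was the highest at 6 months, where DU was the lowest, and Co was the lowest at 1 month.

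DU muscle at 6 months was set against DU muscle at 1 month to see how the uranium libraries themselves differed between the times. Of 12992 genes 91 (0.7%) passed, 43 of them higher (0.331%) and 48 lower (0.369%) at 6 months, and 24 of the higher and 23 of the lower genes differed by over 2-fold. For the same DU contrast DESeq2 called 222 genes and limma with sample quality weights 444. The sham libraries gave more calls over the same interval: 2629 genes (20.2%), 1403 higher (10.8%) and 1226 lower (9.44%), with 3208 by DESeq2 and 2435 by limma. Leaving out single libraries moved the DU count between 49 and 120 and the Ta count between 1395 and 3805, and without the 3 libraries that stood apart the counts were 150 with DU and 1619 with Ta. The DU count was 49 to 60 without any 1 of DU 1 month replicates 4, 5, 6 and 7 and DU 6 months replicates 1, 2, 3, 4 and 6. The Ta count was 1395 without Ta 1 month replicate 8 and 1616 without Ta 6 months replicate 4. Library totals in place of TMM factors gave 39 higher and 16 lower genes with DU, and 419 higher and 1152 lower with Ta, where the median over all genes was -0.15.

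Most DU calls were shared with Ta. Both contrasts came from 1 fit, which pooled the spread of all 31 libraries. Across all genes the changes of DU and of Ta between the times had a Pearson correlation of 0.47 and a Spearman correlation of 0.47. Of the 91 genes, 69 were also called with Ta, which is 75.8% of the DU list, against 20.2% of all genes tested. The 69 are 2.62% of the Ta list, and all 69 had the same sign. The sign in Ta was that in DU for 88 of the 91 (96.7%), against 66.9% of all genes tested. The 43 genes that rose with DU had a median log2 change of 1.15 with DU and 0.94 with Ta. The 48 that fell had medians of -0.98 with DU and -0.72 with Ta. The DU sizes are enlarged by the choice of the genes on them. Conversely, the 1403 genes that rose with Ta had a median of 0.12 with DU and 0.67 with Ta, with the same sign in 80.4%. The 1226 that fell had medians of -0.28 with DU and -0.83 with Ta, with the same sign in 91.4%. In these lists it is the Ta sizes that are enlarged by the choice, so the gap between the metals is not a test of it. Among the 91 genes the lowest adjusted p of the interaction was 0.292 with edgeR, and 15 had an unadjusted p under 0.05, so a call in one metal and not in the other is not a shown difference between them.

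Among called genes that averaged 1 CPM or more in a group, the largest rise belonged to ENSRNOG00000000768, which was nearly without reads at 1 month. It ran from 0.0576 to 4.63 CPM with DU at 6 months (median 2.28) and from 0 to 0.274 CPM with DU at 1 month (median 0, at most 5 reads). With Ta it ran from 0 to 15.0 CPM at 6 months (median 1.78) and from 0 to 0.439 CPM at 1 month (median 0.0682). The log2 change was 5.06 ± 1.11 with DU and 4.96 ± 1.09 with Ta (SE; edgeR adjusted p = 0.0244 and 0.00313), sizes that are poorly fixed at so few reads. The DU call was lost without DU 1 month replicate 7 (edgeR adjusted p = 0.0512), without a filter on low counts (0.0549), with all 150 libraries in 1 model (0.158) and with limma and sample quality weights (0.184).

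ENSRNOG00000049829 also rose. It ran from 1.04 to 58.2 CPM with DU at 6 months (median 2.76) and from 0.0650 to 0.880 CPM with DU at 1 month (median 0.248). All 8 DU libraries of 6 months lay above every DU library of 1 month. The choice of the gene on its DU rise favours this, and how many of all genes separated so was not counted. The highest DU library of 6 months, at 58.2 CPM, was replicate 8, one of the 3 libraries that stood apart. The next was at 4.05 CPM. With Ta it ran from 0.537 to 10.1 CPM at 6 months (median 3.93) and from 0.214 to 1.05 CPM at 1 month (median 0.631). The log2 change was 4.84 ± 0.82 with DU and 2.92 ± 0.79 with Ta (SE; edgeR adjusted p = 0.00438 and 0.0121). Without DU 6 months replicate 8 the DU change was 2.93, close to that with Ta (edgeR adjusted p = 0.00227).

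ENSRNOG00000005574 fell. It ran from 0.290 to 2.15 CPM with DU at 6 months (median 1.01) and from 1.23 to 16.5 CPM with DU at 1 month (median 3.59). With Ta it ran from 0.304 to 2.42 CPM at 6 months (median 0.780) and from 1.55 to 14.5 CPM at 1 month (median 6.18). In either metal 5 of 8 libraries of 6 months lay below every library of 1 month. The log2 change was -2.36 ± 0.53 with DU and -2.59 ± 0.55 with Ta (SE; edgeR adjusted p = 0.0281 and 0.00245). The DU call was lost without any 1 of DU 1 month replicates 5 and 7 and DU 6 months replicates 1, 2, 4, 6 and 8, with an edgeR adjusted p of at most 0.0821.

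ENSRNOG00000009350 fell with DU, close to the threshold. It ran from 0 to 0.751 CPM with DU at 6 months (median 0.456) and from 0.384 to 3.46 CPM with DU at 1 month (median 2.22). With Ta it ran from 0.154 to 1.05 CPM at 6 months (median 0.701) and from 0.200 to 3.30 CPM at 1 month (median 0.439). The log2 change was -2.26 ± 0.56 with DU (SE; edgeR adjusted p = 0.0492) and -1.03 ± 0.57 with Ta (edgeR adjusted p = 0.185). The DU call was lost without any 1 of DU 1 month replicates 1, 3, 4, 6, 7 and 8, DU 6 months replicates 1, 2, 3, 4, 5, 6 and 8, Ta 1 month replicate 1 and Ta 6 months replicates 2, 3 and 8, with an edgeR adjusted p of at most 0.102. The difference between those changes was not past the threshold (log2 -1.23 ± 0.80, SE; edgeR adjusted p = 0.497).

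**Figure D5:**
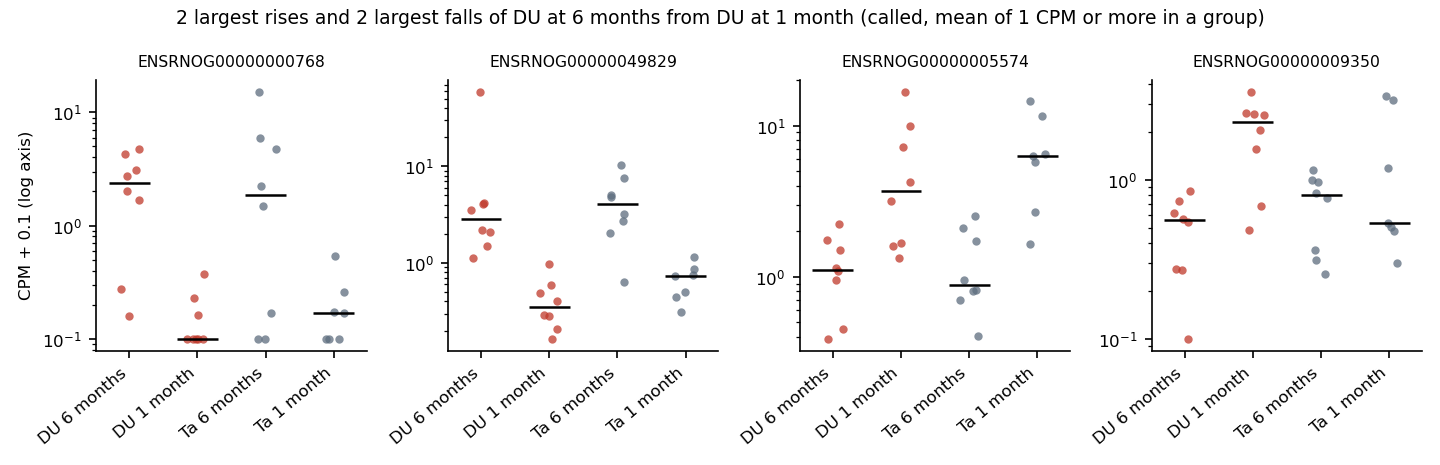
CPM plus 0.1 (y axis, logarithmic) of the 2 largest rises and 2 largest falls of DU at 6 months from DU at 1 month, among called genes that averaged 1 CPM or more in a group, in each library of DU and of Ta at 6 months and 1 month, 1 point per library, with a black line at the median. In ENSRNOG00000049829 all 8 DU libraries of 6 months, the lowest at 1.04 CPM, lie above every DU library of 1 month, the highest at 0.880 CPM. The gene was chosen on its DU rise, and how many of all genes separated so was not counted.

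Between DU and Ta at 6 months none of these 4 genes was called. The log2 fold change of DU over Ta at 6 months was -0.69 ± 0.77 for ENSRNOG00000000768, 1.12 ± 0.65 for ENSRNOG00000049829, -0.06 ± 0.55 for ENSRNOG00000005574 and -0.63 ± 0.59 for ENSRNOG00000009350 (SE; lowest edgeR adjusted p = 0.401). Errors of this size cannot exclude a 2-fold difference between the metals.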

How the data were processed

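Libraries came, per the labels' protocols, from a stranded total RNA kit (input of 1000 ng) and were sequenced as paired reads of 100 bases. The authors deposited raw counts of reads per gene. Per the submitters' processing notes, HISAT2 2.0.5 aligned the reads to Rnor_6.0 and featureCounts 1.5.0-p3 counted them. Neither the annotation release nor the strand setting is given in the sources used here, and genes that overlap, lie antisense to each other or are near-identical can therefore share reads. The labels link libraries to no particular rat among the 8 planned per group. The p-values thus reflect the spread between libraries, which may be technical. No sequencing batch was given.

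Low counts were removed with filterByExpr. The tests used edgeR 4.0.16 (R 4.3.3, with limma 3.58.1): TMM factors, glmQLFit with robust=TRUE, then glmQLFTest. Benjamini-Hochberg adjustment covered all genes tested, with a threshold of 0.05. Metal was tested with time as a block. Differences within a time, within a metal and the interaction came from 1 mean per group. The SE is the size of the log2 fold change divided by the square root of F. CPM used TMM factors over all 150 libraries. The test was checked on simulated counts. All 105 pairs of libraries within a group differed beyond sampling noise (lowest chi-square per degree of freedom 11.5).

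The comparison, gene lists and alternatives were chosen with earlier results of these data known. The reference table (GRCr8, 47357 rows) held 0 Ensembl identifiers, so 35 gene lists could not be used. Named genes averaged 1 CPM or more. They were the largest changes among those called, or those of lowest p where none was, with at most 2 per direction. Alternatives were RLE factors, no filter, DESeq2 1.42.0, limma voom with sample quality weights, robust=FALSE, no time block, a replicate block, all 150 libraries in 1 model and leaving out each library. Chosen after seeing the data were library totals without TMM factors, leaving out libraries that stood apart, and the Ta time difference.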

Additional observations from a re-analysis of the deposited data

Results flagged for a closer look

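A library was listed here where its gap to the next value in its group was unusually large for the size of the group. Of 108 groups of values examined, 24 had such a library. The limit used gives about 1 in 20 for independent, normally distributed values. CPM values can be skewed and the same libraries recur across genes, so 24 cannot be set against that rate. The values of 3 and 12 months are of libraries outside the comparison.

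DU 6 months replicate 8 had 5 such values. Its total was 21197192 counts, next to 16936084 in the library nearest to it, and its TMM factor was 0.815, with 1.08 in the nearest. It had 10954 genes at 1 CPM or more, next to 11423, and its median correlation with its group was 0.935, next to 0.968. ENSRNOG00000049829 was at 58.2 CPM in it, next to 4.05 CPM.

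In the other libraries of 1 and 6 months 4 values were listed. ENSRNOG00000000768 was high in DU 1 month replicate 6 (0.274 CPM), Ta 1 month replicate 3 (0.439 CPM) and Ta 6 months replicate 3 (15.0 CPM). ENSRNOG00000019295 was low in Ta 1 month replicate 8 (12.0 CPM).

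Library measures of 3 and 12 months were not examined for such gaps. The median correlation with the group was 0.566 in DU 3 months replicate 2, next to 0.953 in the library nearest to it. In DU 12 months replicates 6 and 5 it was 0.799 and 0.906. These libraries were part of the fit at 3 and 12 months. DU 3 months replicate 2 stood apart in 6 genes. It was high for ENSRNOG00000000723 (5.22 CPM), ENSRNOG00000000459 (35.9 CPM), ENSRNOG00000000768 (155 CPM), ENSRNOG00000049829 (24.0 CPM) and ENSRNOG00000009350 (29.6 CPM), and low for ENSRNOG00000019295 (2.69 CPM). DU 12 months replicate 6 was high for ENSRNOG00000000723 (6.90 CPM) and ENSRNOG00000059386 (25.1 CPM) and low for ENSRNOG00000019295 (11.4 CPM). DU 12 months replicate 5 was high for ENSRNOG00000049575 (5.43 CPM), ENSRNOG00000000459 (4.80 CPM) and ENSRNOG00000049829 (14.5 CPM). ENSRNOG00000049575 was also high in DU 3 months replicate 8 (6.39 CPM) and Ta 12 months replicate 8 (5.46 CPM), and ENSRNOG00000000768 in Ta 3 months replicate 8 (5.21 CPM).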

How the results depend on the processing

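Counts of called genes depended on the tool and on single libraries, and the cause was not tested. DESeq2 called 15 genes between DU and Ta with both times together, 15 at 1 month, 393 at 6 months, 13 for the interaction, 222 between the times with DU and 288 at 3 and 12 months. Limma voom with weights called 1 at 1 month, 4 at 6 months, 444 between the times with DU and 69 at 3 and 12 months. All 150 libraries in 1 model gave 3 with both times together, 4 at 1 month, 3 at 6 months, 31 between the times with DU and 1356 with Ta. Without a filter 55 genes were called between the times with DU and 311 at 3 and 12 months. Library totals gave 55 between the times with DU and 1571 with Ta. Without the 3 libraries that stood apart these were 150 and 1619, and without the DU library of 3 months that stood apart 48 genes were called at 3 and 12 months. Leaving out each library gave 0 to 0 calls with both times together, 0 to 1 at 1 month, 0 to 609 at 6 months, 0 to 1 for the interaction, 49 to 120 between the times with DU and 1395 to 3805 with Ta. The lowest Ta values were 1395 without Ta 1 month replicate 8 and 1616 without Ta 6 months replicate 4.

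Replicate numbers did not pair the libraries: same-numbered deviations correlated from -0.19 to 0.42 over 15 pairs, 2 of them above 0.1, and 1 DU library correlated best with its own number. A replicate block gave 0 calls with both times together, within each time and for the interaction, and 0 at 3 and 12 months. No named gene changed sign under any alternative run. The 7 genes named for the metal difference and the interaction passed with DESeq2 alone (adjusted p 0.011 to 0.030). Of the genes named for DU between the times, ENSRNOG00000009350 lost its call in 21 of 39 alternatives, ENSRNOG00000005574 in 10, ENSRNOG00000000768 in 4 and ENSRNOG00000049829 in 0. Precision was limited most for genes under 1 CPM.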
